A study of Mus musculus with 8 samples.

Results

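The Cyp2c genes encode cytochrome P450 enzymes of the liver, gut and kidney. Many of them act as epoxygenases, which add oxygen across a double bond of arachidonic acid to form epoxyeicosatrienoic acids (EETs), lipid mediators that dampen inflammation and are cleared by soluble epoxide hydrolase. Others in the same subfamily mainly make hydroxylated fatty acids, or act on bile acids, retinoids and drugs. In mice the genes are recent duplicates that lie side by side on chromosome 19, and the nuclear receptors CAR (Nr1i3) and PXR (Nr1i2) and the hepatocyte factor HNF4A are known regulators of several of them.

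The 10 genes described here are Cyp2c29, Cyp2c37, Cyp2c38, Cyp2c39, Cyp2c40, Cyp2c54, Cyp2c55, Cyp2c65, Cyp2c66 and Cyp2c70, and every non-control probe that the array files assign to one of them was used. That gave 13 probes of 41174, with 7 genes on 1 probe each and Cyp2c37, Cyp2c38 and Cyp2c40 on 2 each. All 13 were detected on all 8 arrays. The samples were livers of male wild-type C57BL/6 mice, 14 to 17 weeks of age when the experiment began, of which 4 were administered standard chow (STD diet) and 4 an atherogenic high-fat, high-cholesterol diet containing cholic acid (ATH) for 4 weeks. No transgene or targeted deletion was named for these mice. Since fat, cholesterol and cholic acid were changed together, their separate effects cannot be told apart. RNA of each liver was hybridized to 1 single-color Agilent array.

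On these arrays 31056 probes were detected in at least 3 of the 4 livers of either diet. Spots well above background made up 72.3% to 77.3% of each STD array and 72.9% to 77.8% of each ATH array. Each diet's arrays shared a slide of their own, and effects of slide and diet cannot be told apart. Levels are given as log2 processed signal minus the 75th percentile of the array's non-control probes, so that 0 is the level of that percentile. This scale bears on every difference between diets, because the percentile itself was 0.45 higher (log2) on the ATH arrays, whereas the spike-in probes (median of 10) were 0.14 higher. The median difference over all detected probes was -0.15 with this scaling, 0.16 with spike-in scaling and 0.30 without scaling. Because the assay used whole liver, fewer cells of a type and less RNA per cell cannot be told apart.

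The probes themselves are shown first, because the genes are close paralogs and a signal can be assigned to 1 gene only as far as its probe differs from the others. Of the 78 pairs among the 13 probes, 3 were far more alike than the rest. The probes in question are A_51_P342206 of Cyp2c38, A_52_P200121 of Cyp2c40 and A_52_P154580 of Cyp2c54, which lie in the same stretch of different genes. The genome coordinates of each span many times its 60 bases, as for a probe that crosses an exon junction. They are printed 5′ to 3′ with the bases that are the same in all 3 in capitals.
Cyp2c38: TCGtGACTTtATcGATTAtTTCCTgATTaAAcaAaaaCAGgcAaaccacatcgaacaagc
Cyp2c40: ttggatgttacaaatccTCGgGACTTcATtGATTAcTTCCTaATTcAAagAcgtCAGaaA
Cyp2c54: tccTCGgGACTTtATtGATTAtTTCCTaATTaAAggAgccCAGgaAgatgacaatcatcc
The Cyp2c40 and Cyp2c54 probes shared 38 of 46 aligned bases, the Cyp2c38 and Cyp2c54 probes 40 of 57, and the Cyp2c38 and Cyp2c40 probes 30 of 43. The longest unbroken run shared by any pair of the 13 probes was 12 bases. Next in likeness came a pair that matched at 56.7% of 30 aligned bases. Transcripts of the neighboring genes Cyp2c50, Cyp2c67, Cyp2c68 and Cyp2c69, which have no probe under their own name on the array, were not used here, so whether they bind these probes was not tested.

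The remaining 10 probes lie in single blocks of 60 bases. The first 30 bases are given, starting with the probes of 4 genes with signals far above background, for Cyp2c37 the one whose diets did not overlap.
Cyp2c29: gagtttcccaacccagagatgtttgaccct
Cyp2c37: aacagccttccccatgaagtgaccagtgac
Cyp2c39: ttacagaatttcaaactgaaacctctggtt
Cyp2c70: cttcttctgtgagcaaaaaggtcctcctgt
Those of Cyp2c55, Cyp2c65 and Cyp2c66 follow, the 3 genes best known from the gut.
Cyp2c55: ttcattcctcgttaaagcagaacacactgg
Cyp2c65: gtctgcaattccctatgctatgcaatgatt
Cyp2c66: tctctgaccctatcaccagagttctgggat
Probe positions are those of the array's own assembly, mm7.

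Most Cyp2c probes had a lower mean signal in liver of mice administered the atherogenic diet. Of the 13 probes, 11 had a lower mean on the ATH arrays, as had 67.0% of all detected probes, and 2, those of Cyp2c66 and Cyp2c70, a higher one, and this split was the same under 75th percentile, spike-in and quantile scaling and without scaling, whereas with normexp background correction Cyp2c66 was lower too. The median difference over the 13 probes was -0.87, against -0.15 over all detected probes. Limma called 3 probes significantly lower at a false discovery rate of 5%, both probes of Cyp2c38 and the probe of Cyp2c55, beside a background of 4.94% of all detected probes called lower. It called 0 of the 13 higher (background 3.06%), 0 at 1% in either direction (background 0.528%) and 12 in either direction at an unadjusted p under 0.05 (background 28.4%). At an adjusted p under 10% it called all 11 of the lower probes and neither of the others (background 17.5% in either direction). Without STD array 3 or without ATH array 4 the count called lower was 1, and without ATH array 2 it was 6. Calls over all detected probes, in either direction, were 394, 489 and 3979 in these settings, against 2483 with all arrays. On 9 probes every ATH array lay below every STD array (background 13.8%), and on 0 did every ATH array lie above (background 6.01%). By the exact two-sided permutation test on the brighter probe of each gene, 6 of the 10 genes (Cyp2c29, Cyp2c38, Cyp2c40, Cyp2c54, Cyp2c55 and Cyp2c65) reached p = 0.0286, the smallest that 4 arrays against 4 allow. This p is reached only where the diets do not overlap, so the count restates the previous one by gene. It was not adjusted over the 10 genes and became 3 without scaling or with spike-in scaling.

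**Figure D1:**
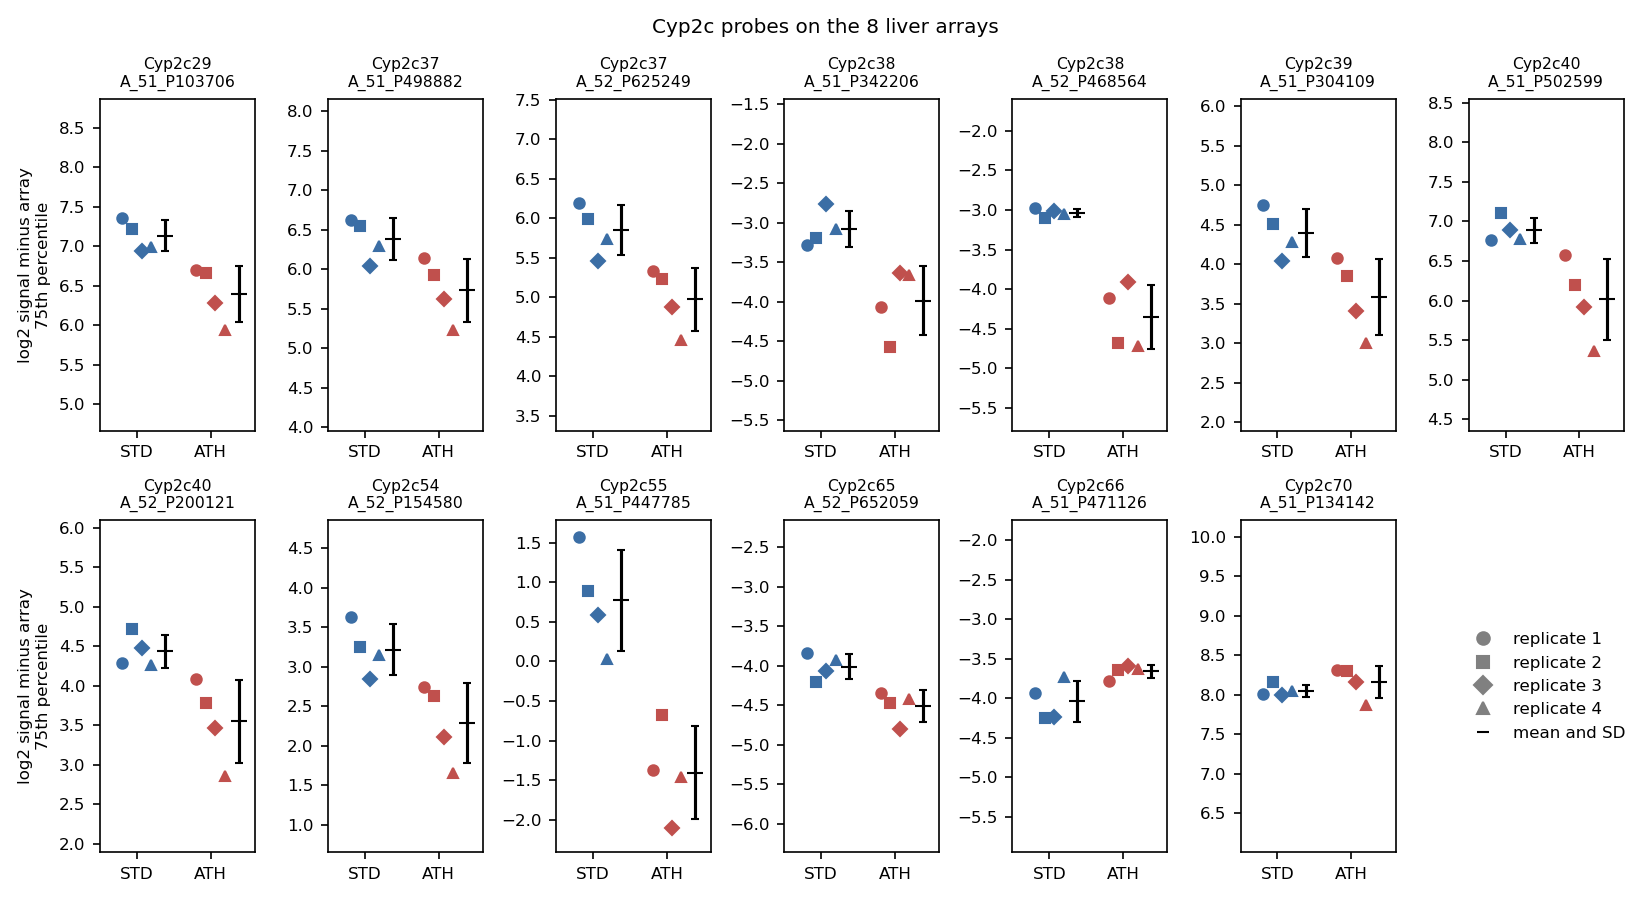
Each panel plots the log2 signal minus the array's 75th percentile (vertical axis, each panel spanning the same number of log2 units) of 1 Cyp2c probe on the 4 STD and 4 ATH arrays, with the marker shape giving the replicate number and the black bar the mean and SD. The diets do not overlap in 9 of the 13 panels, and the step is widest for Cyp2c55, from a mean of 0.77 to -1.40.

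Cyp2c29, one of the main EET-forming P450s of mouse liver, was measured by A_51_P103706 (chr19:39222926-39222985). Its scaled log2 signal was 7.36, 7.22, 6.94 and 7.0 on STD arrays 1 to 4 and 6.71, 6.66, 6.28 and 5.94 on ATH arrays 1 to 4. Every ATH liver lay below every STD liver. The diet means were 7.13 ± 0.20 and 6.40 ± 0.36 (SD, n = 4), a scaled signal 1.66-fold higher on the STD diet. The difference between diets was -0.73 with a standard error of 0.20 (95% interval -1.18 to -0.29, limma adjusted p = 0.0528). Without scaling the difference was -0.29 (adjusted p = 0.227). The call at 5% was made only when ATH array 2 was left out (adjusted p = 0.0384), among the 8 arrays left out in turn.

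Cyp2c37, a hepatic P450 that oxidizes arachidonic acid, had 2 probes. On A_51_P498882 (chr19:39905751-39905810) the scaled log2 signal was 6.63, 6.55, 6.04 and 6.30 on the STD arrays and 6.14, 5.93, 5.63 and 5.23 on the ATH arrays. ATH array 1 lay above STD array 3, so the diets overlapped. Limma gave a log2 difference of -0.65 ± 0.22 (SE) and an adjusted p of 0.0971. On A_52_P625249 (chr19:39895723-39895782) the STD arrays read 6.19, 5.99, 5.46 and 5.73 and the ATH arrays 5.33, 5.22, 4.87 and 4.46. Here the diets did not overlap. The difference was -0.87 ± 0.23 (SE; adjusted p = 0.0519, and 0.0433 without ATH array 2). With any other array left out the adjusted p lay between 0.0532 and 0.130. The gap between both probes, taken within each array, was 0.53 ± 0.06 with the STD diet against 0.76 ± 0.04 with the atherogenic diet (SD, n = 4), so the probes differed in their diet effect by 0.23 (exact permutation p = 0.0286, 0.0857 after adjustment over the 3 genes with 2 probes).

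Cyp2c39, an EET-forming P450 that also oxidizes retinoic acid, was measured by A_51_P304109 (chr19:39461852-39461911). Its scaled log2 signal was 4.74, 4.51, 4.04 and 4.29 on STD arrays 1 to 4 and 4.08, 3.85, 3.41 and 3.0 on ATH arrays 1 to 4. ATH array 1 and STD array 3 were nearly level, and the diets overlapped there. The difference between diets was -0.81 with a standard error of 0.25 (95% interval -1.38 to -0.23, limma adjusted p = 0.0804). Cyp2c40, a hydroxylase of arachidonic acid, had 2 probes, at chr19:39661106-39661165 and chr19:39680672-39696310. A_51_P502599 read 6.77, 7.10, 6.89 and 6.78 on the STD arrays and 6.58, 6.20, 5.92 and 5.36 on the ATH arrays. The junction probe A_52_P200121 read 4.29, 4.71, 4.47 and 4.26 and 4.08, 3.79, 3.46 and 2.86. On both probes STD array 2 was highest, ATH array 4 was lowest and the diets did not overlap. The differences were -0.87 ± 0.24 and -0.89 ± 0.25 (SE), with adjusted p of 0.0590 and 0.0624. Both were called when ATH array 1 was left out (adjusted p = 0.0392 and 0.0458). Neither was called with any other array left out (adjusted p from 0.057 to 0.128 and from 0.056 to 0.134). Their within-array gap was 2.45 ± 0.06 with the STD diet and 2.47 ± 0.04 with the atherogenic diet (SD, n = 4), a change of 0.01 (exact permutation p = 0.686).

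Cyp2c54, an arachidonic and linoleic acid epoxygenase, was measured by the junction probe A_52_P154580 (chr19:39941403-39963984). Its scaled log2 signal was 3.63, 3.24, 2.85 and 3.14 on STD arrays 1 to 4 and 2.75, 2.63, 2.11 and 1.65 on ATH arrays 1 to 4. The diets did not overlap, with STD array 3 and ATH array 1 closest to each other. The difference between diets was -0.93 with a standard error of 0.27 (95% interval -1.53 to -0.33, limma adjusted p = 0.0633). Without ATH array 2 the adjusted p was 0.0480, and with any other array left out it lay between 0.0554 and 0.149.

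Cyp2c38 is an EET-forming paralog whose probes were both close to background in these livers. On A_51_P342206 (chr19:39298557-39329867) the scaled log2 signal was -3.29, -3.19, -2.77 and -3.08 on the STD arrays and -4.07, -4.58, -3.64 and -3.67 on the ATH arrays. Limma gave a log2 difference of -0.91 ± 0.23 (SE) and an adjusted p of 0.0451. On A_52_P468564 (chr19:39283722-39283781) the STD arrays read -2.98, -3.10, -3.01 and -3.05 and the ATH arrays -4.11, -4.68, -3.91 and -4.72. The STD livers were tightly grouped on this second probe (SD 0.05) and the ATH livers were spread (SD 0.41), without overlap. It was significantly suppressed, with a difference of -1.32 ± 0.20 (SE; adjusted p = 0.0121), and stayed called with each array left out in turn (adjusted p from 0.00901 to 0.0434). By contrast A_51_P342206 was called without ATH array 2 (adjusted p = 0.0387), while with any other array left out its adjusted p lay between 0.0661 and 0.113. Without scaling the differences were -0.46 (adjusted p = 0.240) and -0.88 (adjusted p = 0.0266), and with quantile normalization A_51_P342206 was no longer called (adjusted p = 0.0699). The processed signals ran from 49.0 to 67.8 and from 23.2 to 55.4 on the first probe, and from 54.3 to 60.6 and from 21.6 to 45.5 on the second, on the STD and ATH arrays. At its lowest, the signal was 1.72 and 1.61 times the lowest signal of any probe well above background on the same array. With normexp background correction the differences were -0.55 and -0.62 (adjusted p = 0.00779 and 0.00681). That setting subtracted the local background, modeled what remained and added an offset of 50. The offset is of the order of these signals, so it shrinks their log2 differences.

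Cyp2c55 is known for hydroxylating arachidonic acid in the colon and for its induction by CAR and PXR activators in liver. Its probe, A_51_P447785 (chr19:38807081-38807140), had the largest difference of the 13. Its scaled log2 signal was 1.57, 0.90, 0.59 and 0.04 on STD arrays 1 to 4 and -1.37, -0.68, -2.11 and -1.46 on ATH arrays 1 to 4. The lowest STD liver lay above the highest ATH liver, and the livers were widely spread within both diets. The means were 0.77 ± 0.64 and -1.40 ± 0.58 (SD, n = 4), and the scaled signal was 4.53-fold higher on the STD diet. The difference between diets was -2.18 with a standard error of 0.37 (95% interval -3.02 to -1.34, limma adjusted p = 0.0179). Without scaling the difference was -1.73 (adjusted p = 0.0162) and with spike-in scaling -1.87 (adjusted p = 0.0232). It was not called without ATH array 4 (adjusted p = 0.0508) or without STD array 3 (adjusted p = 0.0519).

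Cyp2c65 and Cyp2c66, neighbors that are best known from the intestine, both gave signals close to background. On A_52_P652059 of Cyp2c65 (chr19:38863252-38863311) the scaled log2 signal was -3.85, -4.21, -4.07 and -3.93 on the STD arrays and -4.35, -4.48, -4.80 and -4.43 on the ATH arrays. The diets did not overlap on this scale. The difference was -0.50 ± 0.14 (SE; adjusted p = 0.0663). The processed signals themselves overlapped almost fully, from 26.1 to 33.2 on the STD arrays and from 24.6 to 32.7 on the ATH arrays, and without scaling the difference was -0.05. On A_51_P471126 of Cyp2c66 (chr19:38956006-38956065) the STD arrays read -3.94, -4.26, -4.24 and -3.73 and the ATH arrays -3.78, -3.64, -3.59 and -3.63. STD array 4 lay within the ATH range. The difference was 0.38 ± 0.15 (SE; adjusted p = 0.136). Here the processed signals did not overlap, at 24.4 to 33.9 on the STD arrays and 44.3 to 57.1 on the ATH arrays, and the difference without scaling was 0.83 (adjusted p = 0.0143). With normexp background correction it was -0.08 (adjusted p = 0.570) and thus of the opposite sign. The offset of 50 added in that setting is of the order of these signals. The lowest signals were 1.85 times and 2.11 times the lowest signal of any probe well above background on the same array, for Cyp2c65 and Cyp2c66.

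Cyp2c70, the P450 that converts bile acids to muricholic acids in mouse liver, was measured by A_51_P134142 (chr19:40047253-40047312). Its scaled log2 signal was 8.01, 8.16, 7.99 and 8.05 on STD arrays 1 to 4 and 8.31, 8.30, 8.16 and 7.87 on ATH arrays 1 to 4. ATH arrays 1 and 2 lay above every STD array and ATH array 4 below them all. The means were 8.05 ± 0.07 and 8.16 ± 0.21 (SD, n = 4), which differed by 0.11 ± 0.13 (SE; 95% interval -0.20 to 0.41, adjusted p = 0.624). Its processed signals did not overlap, at 117606 to 137805 on the STD arrays and 164681 to 196091 on the ATH arrays. Without scaling the difference was 0.55 (adjusted p = 0.0171), with quantile normalization 0.49 (adjusted p = 0.0364) and with spike-in scaling 0.42 (adjusted p = 0.0638).

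**Figure D2:**
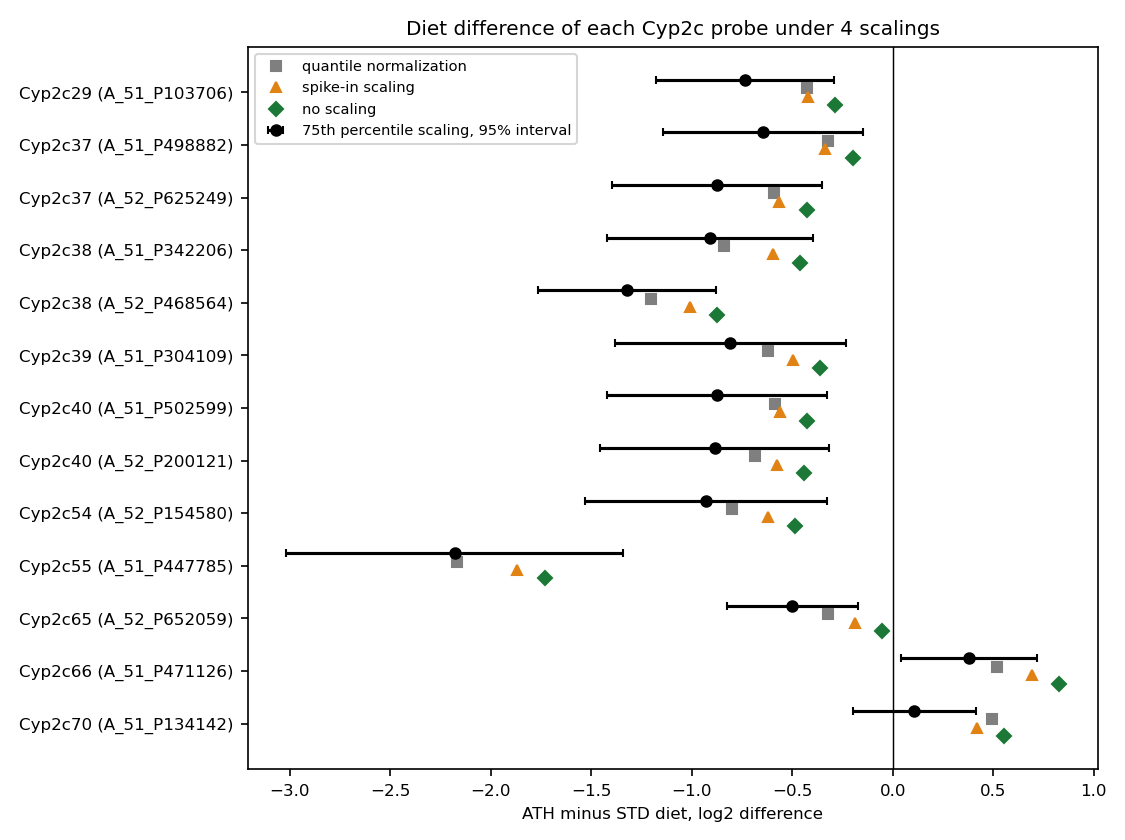
Log2 difference between the diets (horizontal axis, ATH minus STD) for each Cyp2c probe, with the 95% interval of limma for the 75th percentile scaling and points for quantile normalization, spike-in scaling and no scaling. All points of 11 probes lie below 0 and all points of Cyp2c66 and Cyp2c70 above it, and Cyp2c65 comes closest to 0, at -0.05 without scaling.

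To compare the paralogs without any dependence on the scaling, the log2 signal of 1 gene was subtracted from that of another on the same array and the difference was compared between diets, with the brighter probe of a gene that had 2. The result is a difference of diet effects, not of levels. Of the 45 pairs, 22 did not overlap between diets, each with the smallest p that the exact two-sided permutation test over 8 arrays allows (p = 0.0286). After adjustment over the 45 pairs these were at 0.0584, so 0 pairs passed 5% after adjustment. When each of the 10 genes was paired in this way with each of the 16548 other genes, 40.8% of pairs did not overlap, against 22 of 45 among the paralogs.

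By gene, Cyp2c66 differed without overlap from 8 of the 9 others, all but Cyp2c70, while 32.2% of its pairs with other genes did so. Cyp2c70 differed from 7 of 9, all but Cyp2c65 and Cyp2c66, with a background of 26.7%. Cyp2c55 differed from 8 of 9, all but Cyp2c38, with a background of 87.8%, so this share was near that for genes in general. With normexp background correction the counts became 3 of 9 for Cyp2c66 (against Cyp2c38, Cyp2c55 and Cyp2c65), 8 of 9 for Cyp2c70 and 6 of 9 for Cyp2c55, so most pairs of Cyp2c66, whose signal was close to background, then overlapped.

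The diet effect of Cyp2c29 minus that of Cyp2c70 was -0.84 ± 0.13 (SE), the within-array difference going from -0.92 ± 0.19 on the STD diet to -1.76 ± 0.16 on the atherogenic diet (SD, n = 4). For Cyp2c40 and Cyp2c54 minus Cyp2c70 it was -0.98 ± 0.17 and -1.04 ± 0.22. Among the pairs without overlap, the widest was Cyp2c55 against Cyp2c66, at -2.56 ± 0.49, followed by Cyp2c55 against Cyp2c70, at -2.29 ± 0.43. For Cyp2c29 minus Cyp2c55 it was 1.44 ± 0.35.

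For the neighbors Cyp2c65 and Cyp2c66 the within-array difference was 0.03 ± 0.16 with the STD diet against -0.85 ± 0.27 with the atherogenic diet (SD, n = 4), a difference of diet effects of -0.88 ± 0.16 (SE). With normexp background correction this came to -0.25 ± 0.07, still without overlap, and that of Cyp2c55 against Cyp2c66 to -1.79 ± 0.39, whereas Cyp2c29 against Cyp2c70 stayed at -0.84 ± 0.13. With quantile normalization 24 pairs and with normexp background correction 17 pairs did not overlap, and 21 and 14 of these were among the 22.

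Setting aside Cyp2c55, Cyp2c66 and Cyp2c70, the genes with most pairs without overlap, leaves Cyp2c29, Cyp2c37, Cyp2c38, Cyp2c39, Cyp2c40, Cyp2c54 and Cyp2c65. Since these same pairs define the group, overlap within it is partly built in. In it 1 of 21 pairs did not overlap, Cyp2c37 and Cyp2c39, by 0.16 ± 0.06 (SE). With quantile normalization 3 of 21 did not, that pair and Cyp2c54 with each of its genes. With normexp background correction Cyp2c37 and Cyp2c39 overlapped (0.12 ± 0.06), whereas Cyp2c54 did not overlap with Cyp2c37 (Cyp2c37 minus Cyp2c54, 0.28 ± 0.09) or with Cyp2c39 (Cyp2c39 minus Cyp2c54, 0.16 ± 0.05). For Cyp2c29 against Cyp2c37 the difference of diet effects was -0.09 ± 0.06 (exact permutation p = 0.257) and against Cyp2c39 it was 0.07 ± 0.09 (p = 0.429, exact). The pairs with Cyp2c38 were less precise. Cyp2c38 against Cyp2c54, for example, gave 0.02 ± 0.52 (exact permutation p = 0.971), an error too wide to tell small differences of either sign.

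**Figure D3:**
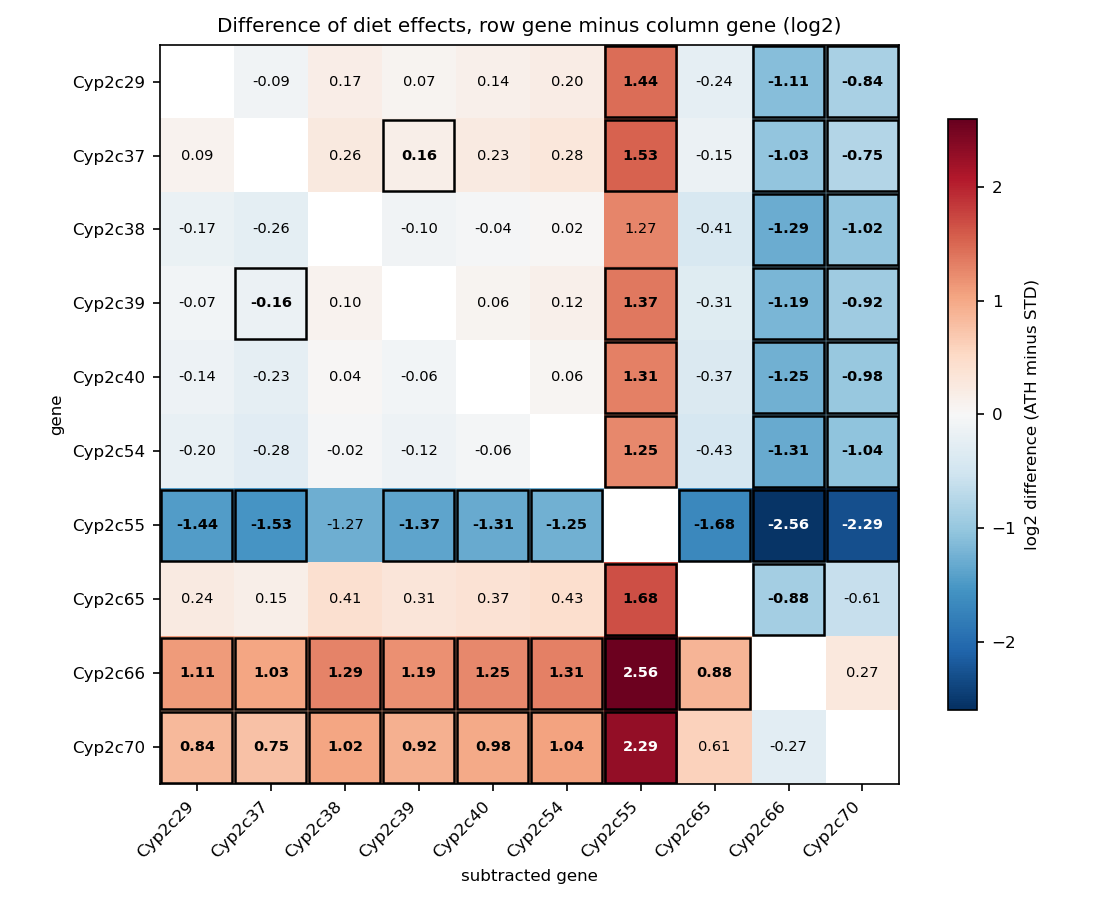
Each cell gives the difference of diet effects (log2, ATH minus STD) of the gene in its row minus the gene in its column, from within-array differences of the brighter probes. Outlined cells are the pairs whose within-array differences do not overlap between diets, and apart from the pair of Cyp2c37 and Cyp2c39, at 0.16, each of them involves Cyp2c55, Cyp2c66 or Cyp2c70.

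Several probes ranked the livers of a diet alike. Within the STD diet the highest array was array 1 and the lowest array 3 on the probes of Cyp2c29, Cyp2c39, Cyp2c54 and both probes of Cyp2c37, and within the atherogenic diet the same 5 probes were highest on array 1 and lowest on array 4. Over all 13 probes, STD array 1 was the highest of its diet on 8 and ATH array 4 the lowest of its diet on 9. The share of all detected probes with this order was not computed, so it is not shown to be particular to these genes. Among the hepatocyte markers, Alb and Rbp4 were also lowest of their diet on ATH array 4, whereas Cps1 was lowest on ATH array 3. Cyp2c55 was highest on ATH array 2 and lowest on ATH array 3. Over the 8 arrays the genes outside the 10 with the pattern most like that of Cyp2c29, by Pearson's r across 16548 genes, were Ugt1a6b (0.992), Hadhb (0.991), Bnip3 (0.991), Gm4013 (0.990) and Tfb2m (0.987). Ugt1a6b is a glucuronosyltransferase and Hadhb a subunit of the mitochondrial enzyme of fatty acid oxidation. For Cyp2c55 they were B830017H08Rik (0.989), Adora2a (0.985), Decr2 (0.983), 1700001F09Rik (0.976) and Kcnd2 (0.974), of which Decr2 is a peroxisomal enzyme of fatty acid oxidation and Adora2a an adenosine receptor. These correlations are descriptions, since both diets enter them and the points share the arrays' scaling.

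In the order of their probes on chromosome 19 the genes run Cyp2c55, Cyp2c65, Cyp2c66, Cyp2c29, Cyp2c38, Cyp2c39, Cyp2c40, Cyp2c37, Cyp2c54 and Cyp2c70. The 2 genes with a higher mean on the atherogenic diet are not next to each other, and Cyp2c66 has a gene with a lower mean on either side. Promoters of 9 of the 10 genes, in 10 versions because RefSeq lists 2 start sites of Cyp2c39, were taken from RefSeq on GRCm38.p6 as the 250 bases before the start site. The promoters of the neighbors Cyp2c65 and Cyp2c66 were the most alike, with 83.2% of the 250 bases identical in a gapped global alignment. The diet differences of these genes had opposite signs, at -0.50 and 0.38, but neither was called (limma adjusted p = 0.0663 and 0.136). With normexp background correction both were negative, at -0.33 and -0.08. Both signals were close to background, so a difference in sign between these genes is not established. Cyp2c38 and the first Cyp2c39 promoter matched at 80.4%, and Cyp2c29 and that Cyp2c39 promoter at 78.0%. The second Cyp2c39 promoter matched them at 79.2% and 74.4%. By coordinate the promoter of Cyp2c38 lies between both Cyp2c39 promoters.

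The 6 letters CAAAGT, the core of the site to which HNF4A binds, were found in the promoters of 8 of the 9 genes, on either strand, all but Cyp2c55, and in 12.6% of all 32851 RefSeq promoters of the same length. The longer form CAAAGTCCA, which contains the first motif, was found in those of Cyp2c40, Cyp2c65 and Cyp2c70 and in 0.384% of all promoters. AGGTCA, the half-site of many nuclear receptors, was found in those of Cyp2c29, Cyp2c39 and Cyp2c70 (14.0% of all promoters) and TATAAA in those of 6 genes (12.4%). For Cyp2c39, AGGTCA was found in the first promoter and not in the second. The motifs were chosen after the promoters had been read, and a match is a description of the letters. The windows around CAAAGT (GRCm38.p6) are given on the strand of the gene, with the motif in capitals, to show how far the copies are alike. Where a promoter held several matches (Cyp2c29, Cyp2c37 and Cyp2c70), the one with most letters of the longer form, then the nearest to the start, is given.
Cyp2c65, chr19:39060873-39060912, plus strand: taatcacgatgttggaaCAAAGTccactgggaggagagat
Cyp2c66, chr19:39113777-39113816, plus strand: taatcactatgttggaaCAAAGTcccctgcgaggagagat
Cyp2c29, chr19:39286959-39286998, plus strand: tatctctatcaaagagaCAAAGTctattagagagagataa
Cyp2c39, chr19:39347215-39347254, plus strand: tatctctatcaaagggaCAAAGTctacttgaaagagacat
Cyp2c39, chr19:39510719-39510758, plus strand: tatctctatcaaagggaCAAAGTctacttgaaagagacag
Cyp2c38, chr19:39463164-39463203, minus strand: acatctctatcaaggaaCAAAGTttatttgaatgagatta
Cyp2c40, chr19:39812837-39812876, minus strand: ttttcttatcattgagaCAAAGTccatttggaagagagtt
Cyp2c37, chr19:39992344-39992383, plus strand: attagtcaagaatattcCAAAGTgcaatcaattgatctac
Cyp2c70, chr19:40187328-40187367, minus strand: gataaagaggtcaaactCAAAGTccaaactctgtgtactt
At matched positions, 37 of 40 bases were the same in the windows of Cyp2c65 and Cyp2c66, 39 of 40 in those of both Cyp2c39 start sites and 34 of 40 in those of Cyp2c29 and Cyp2c39, whereas the windows of Cyp2c37 and Cyp2c70 shared at most 18 and 17 of 40 with any other. Among the matches not given, that of Cyp2c37 at position -116 from the start shared 28 of 40 with the window of Cyp2c40, and that of Cyp2c70 at -95 shared 23 of 40 with a window of Cyp2c39. CAAAGT was found in the promoters of 6 genes with a lower mean on the atherogenic diet (Cyp2c29, Cyp2c37, Cyp2c38, Cyp2c39, Cyp2c40 and Cyp2c65) and of both with a higher mean, and was not found in that of Cyp2c55, which had the largest difference. The promoter of Cyp2c54 was not used here.

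The other genes listed here with the EET pathway include cytochrome b5 genes and a cytochrome b5 reductase. Those detected had a median difference of -0.51 over 12 genes, against -0.14 over all 16558 genes. Of these, 4 were significantly lower and 0 higher, and 11 of the 12 had a lower mean. Over all genes, by 1 probe each, 5.30% were called lower and 4.05% higher, and 65.1% had a lower and 34.9% a higher mean, the background for each list that follows. Cyb5b, a cytochrome b5, and Cyb5r3, a cytochrome b5 reductase, fell by 0.93 ± 0.16 and 0.76 ± 0.15 (SE; adjusted p = 0.0191 and 0.0254). The other cytochrome b5 gene of the list, Cyb5a, was not called (difference -0.50, limma adjusted p = 0.126). Ephx1, the microsomal epoxide hydrolase, fell by 0.73 ± 0.16 (adjusted p = 0.0343) and the epoxygenase relative Cyp2j11 by 0.70 ± 0.16 (adjusted p = 0.0374). Cyp2c23, which the array files call Cyp2c44, was the remaining Cyp2c gene with a probe, at 6.46 ± 0.21 with the STD diet and 5.91 ± 0.44 with the atherogenic diet (SD, n = 4; difference -0.54, adjusted p = 0.149). The omega-hydroxylases, P450s that oxidize the end of the same fatty acid, had a median of -0.61 over 9 genes, with 4 called lower and 0 higher. Cyp4a14 fell by 3.82 ± 0.92 (SE; adjusted p = 0.0427), Cyp4a12a by 1.55 ± 0.27 (adjusted p = 0.0189), Cyp4a10 by 1.16 ± 0.20 (adjusted p = 0.0179) and Cyp4f13 by 0.61 ± 0.11 (adjusted p = 0.0191). The list's share called lower compares with 5.30% of all genes. For comparison, the median over the 10 Cyp2c genes was -0.77 by their brighter probes, with 2 called lower. Without scaling the medians were -0.07 for the other EET pathway genes, -0.16 for the omega-hydroxylases and -0.32 for the 10 Cyp2c genes, against 0.31 for all genes.

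Among 14 regulators of Cyp2c genes, 0 were called by limma in either direction at 5%. At an unadjusted limma p under 0.05 there were 5, beside 28.4% of all detected probes. By the methods' test with unequal variances these counts were 0 and 4, and the share over all probes at its unadjusted p was not computed. Of the 14 regulators, 13 had a lower mean, with a median of -0.32 that turned to 0.13 without scaling. Nr1i3 (CAR) read 3.26, 2.80, 2.58 and 2.57 on STD arrays 1 to 4 and 2.59, 2.72, 1.62 and 1.59 on ATH arrays 1 to 4. The diets overlapped, and the difference was -0.67 ± 0.30 (SE; adjusted p = 0.179). Nr1i2 (PXR) was widely spread within both diets, from 1.80 to 3.84 on the STD arrays and from 1.27 to 3.31 on the ATH arrays (difference -0.76 ± 0.58, adjusted p = 0.412). Hnf4a differed by -0.13 ± 0.14 (adjusted p = 0.578). The genes listed here as targets of CAR and PXR had a median of -0.90 over the 17 detected. Of these, 8 were called lower and 0 higher (5.30% and 4.05% of all genes). Without scaling this median was -0.45 and with spike-in scaling -0.59. Cyp2b13 fell by 2.94 ± 0.63, Cyp2b10 by 2.41 ± 0.50 and Cyp3a11 by 1.83 ± 0.17 (SE; adjusted p = 0.0324, 0.0300 and 0.00339), and Aldh1a1, Abcc3 and Cyp2a4 were also among those called.

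**Figure D4:**
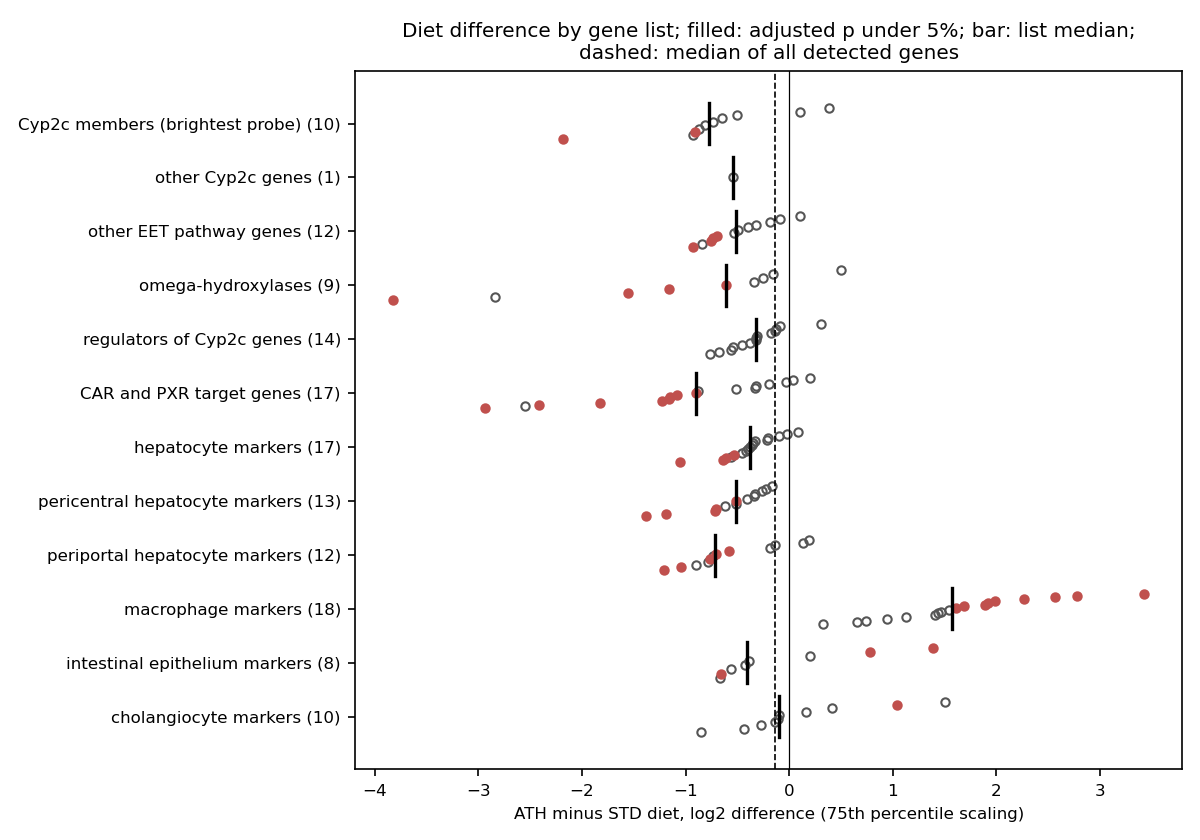
Log2 difference between the diets (horizontal axis, ATH minus STD, 75th percentile scaling) of every detected gene in each list, with filled points for genes with a limma adjusted p under 5%, a bar at the list median and a dashed line at the median of all detected genes. The 10 Cyp2c genes have a median of -0.77, and the macrophage markers stand on the other side of 0 at 1.58.

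Markers of liver cell types also differed between the diets. All 17 hepatocyte markers with a probe, such as the serum proteins, were detected on these arrays, 16 of them with a lower mean and 4 called lower (Tat, Serpina1b, Hpd and Ttpa) and 0 higher, with a median of -0.38 and of 0.07 without scaling. Their summed scaled signal, in multiples of the 75th percentile, ran from 7069 to 7343 on the STD arrays and from 4647 to 6309 on the ATH arrays. Pericentral hepatocyte markers, the zone in which several Cyp2c genes are expressed, had a median of -0.51 (-0.07 without scaling), and all 13 had a lower mean on the 75th percentile scale (summed signal 1037 to 1175 and 687 to 991.3). Limma called 5 of them lower (Rhbg, Oat, Cyp27a1, Cyp1a2 and Slc1a2) and 0 higher. Periportal markers had a median of -0.72 (-0.27 without scaling), with 10 of 12 lower in mean and 2 higher (summed signal 1345 to 1434 and 757 to 947). Of these 5 were called lower (Gls2, Asl, Arg1, Ass1 and Cyp2f2) and 0 higher. All 18 macrophage markers had a higher mean on the atherogenic diet (34.9% of all genes) and 9 were called higher (4.05% of all genes), with Marco, Lgals3, Cd14, Lyz2, Tyrobp and Cd68 the largest of these. The median of the 18 was 1.58 and their summed signal ran from 120.1 to 145 on the STD arrays and from 229.7 to 929 on the ATH arrays. The part of these cell types in the Cyp2c differences was not tested. Of 12 markers of the intestinal epithelium, in which Cyp2c55, Cyp2c65 and Cyp2c66 are known to be expressed, Muc2, Cdx2, Lct and Cdh17 were not detected, 1 of the 8 detected was called lower (Alpi) and 2 higher (Fabp2 and Guca2a). Of these 8, 5 had a lower mean, and the median was -0.41. Their summed signal was 26.1 to 58.6 and 77.0 to 134, of which Fabp2, a fatty acid binding protein, made up 22.8 to 55.0 and 74.9 to 131, and without it the sum was 3.29 to 4.61 and 1.94 to 3.64. Markers of cholangiocytes had a median of -0.10 over 10 genes, with 6 lower in mean, Sox9 called higher and 0 called lower, and a summed signal of 28.6 to 40.03 and 33.0 to 109. Spp1, named here after its values were seen and not called (adjusted p = 0.104), made up 9.87 to 14.7 and 15.0 to 90.5 of this, and without it the sum was 17.6 to 25.7 and 14.8 to 22.7.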

How the data were processed

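Labeled liver RNA of 8 mice was hybridized by the authors to Agilent arrays, 1 per mouse, and scanned with Feature Extraction version 9.5, named in the submitters' processing notes. The authors deposited the spot intensity values of each array, after subtraction of background and detrending by that software, and beside them a table of log2 values. For 100% of detected probes the latter differ from the log2 of the processed signal by an offset for the array and an offset for the probe, within 0.001. Their centring is by probe, and the scaling behind the offsets was not given in the sources used here and column medians ran from -0.0396 to 0.164.

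Spots without an outlier flag were averaged per probe on the log2 scale, and the 75th percentile of the 41174 non-control probes was subtracted. A probe counted as detected where it was well above background, positive and significant on at least 3 of 4 arrays of either diet. Diets were compared by the two-sided moderated test of limma 3.58.1 (R 4.3.3), with p-values adjusted over 31056 probes by the Benjamini-Hochberg method, and single values and within-array differences with exact permutation tests over the 70 assignments of 8 arrays. Genes outside the 10 were represented by the probe with the highest mean. Probes were named by accession (22951), symbol (6659) or synonym (3109) through a RefSeq table of GRCm38.p6, and 8455 stayed unnamed. On simulated data for the diet comparison, with 200 of 31056 probes changed, limma at 5% recovered 52% of the changes of 1 and 87% of those of 2 on the log2 scale. The simulated noise was independent between probes, and far fewer probes were changed than the 2483 called on the real arrays. These rates therefore need not hold for the real comparison. Precision is limited by the 4 arrays per diet. Python version 3.11.15, numpy 2.4.6, pandas 2.3.3 and matplotlib 3.10.9 were used.

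The 10 genes, the lists and the tests were chosen with earlier results of these data known. All probes of the 10 genes were named, and from each list the genes called at 5%, at most 6 by size, with Nr1i3, Nr1i2 and Hnf4a in any case. The mice behind the labels are separate animals by the study's methods. Measurements by PCR, mass spectrometry and histology were not analysed here.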

Additional observations from a re-analysis of the deposited data

How the results depend on the processing

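Over the 13 probes and 20 alternatives each, 260 values in all, 218 kept their direction and side of the threshold, 21 newly passed 5%, 20 no longer did and 1 reversed. That 1 was Cyp2c66, at -0.076 with normexp background correction. The count of probes called lower, 3, became 10 with normexp, 6 on probes detected on all 8 arrays, 0 with the methods' test with unequal variances (11 of 13 probes at an unadjusted p under 0.05, in either direction), 0 at 1%, 5 with the replicate number as a block, and 1 to 6 with an array left out. For the methods' test, the share of all detected probes at an unadjusted p under 0.05 was not computed. The 11 of 13 therefore has no background to be compared with. The count called higher, 0, became 2 without scaling, 1 with spike-in scaling and 1 with quantile normalization. The count of genes with an exact permutation p under 0.05, 6 of 10, became 3 without scaling, 3 with spike-in scaling and 3 to 7 with an array left out, the 3 being without STD array 1, 2 or 3.

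Over all detected probes 2483 were called, against 6356 with normexp, 7358 without scaling, 1084 without the detection filter, 22 with the methods' test with unequal variances, 164 at 1% and 394 to 3979 with an array left out (lowest without STD array 3, highest without ATH array 2). With the block it was 1269, with spike-in scaling 2934 and with quantile normalization 1920. On the 27153 probes detected on all 8 arrays it was 2673. These counts are in either direction. The deviations of same-numbered arrays, which share a position on their slides, correlated at 0.0996, 0.229, 0.181 and 0.175, and 4 of 4 STD and 3 of 4 ATH arrays correlated best with their own number. Since 1 value was under 0.1, the numbers were not taken to pair the mice. The 2 additional probes called with the block were those of Cyp2c29 (adjusted p = 0.0480) and A_52_P625249 of Cyp2c37 (0.0461). As pairs by number, 27 of the 45 paralog pairs reached the smallest p of an exact sign test, 0.125. The share of other gene pairs that did so was not computed.

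The median of the regulators reversed to 0.13 without scaling, that of the hepatocyte markers to 0.0709 without scaling and 0.0259 with quantile normalization, that of the intestinal markers to 0.0369 without scaling, and that of the cholangiocyte markers to 0.35 without scaling and 0.21 with spike-in scaling. Signals near background limit Cyp2c38, Cyp2c65 and Cyp2c66. Alternatives for the probes of 1 gene and the scaling of paralog differences were chosen after seeing the data.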
